A study of Mus musculus with 6 samples.

Results

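The 10 circadian clock genes Arntl, Npas2, Clock, Per1, Per2, Per3, Cry1, Nr1d1, Nr1d2 and Dbp were followed in the livers of 6 mice, 3 labelled LKB1 knockout (KO) and 3 wild type (WT). They were taken by gene symbol from the deposited table of 55450 genes, and all 10 had 1 row each and enough counts to be tested. Per the labels, all mice were of strain C57BL/J and 10 weeks old, and all had been injected at 6 weeks of age with AAV8 Cre, an adeno-associated virus that carries the Cre recombinase. The KO mice carried LKB1 fl/fl alleles, which Cre cuts out, and the WT mice carried none, so that virus and Cre were common to both groups. LKB1 is a kinase, encoded by Stk11, that activates AMPK. The left liver lobe was taken 4 weeks after the virus. The promoter that drove Cre, the hour at which the livers were taken, the light schedule and the feeding state are not given in the sources used here.

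The clock is a loop of transcription factors that runs in nearly every cell. BMAL1, the product of Arntl, pairs with CLOCK or its relative NPAS2, binds E-box motifs and activates the Per, Cry, Nr1d1, Nr1d2 and Dbp genes. PER and CRY proteins then inhibit that pair, and CRY1 is also a substrate of AMPK, which marks it for breakdown. The nuclear receptors REV-ERB alpha and beta, encoded by Nr1d1 and Nr1d2, repress Arntl, Npas2, Clock and Cry1, and compete with the ROR receptors that activate the same sites. DBP and its relatives TEF and HLF carry the rhythm to liver enzymes through D-box motifs, where NFIL3 acts against them. In mouse liver the Arntl and Npas2 transcripts peak at a phase nearly opposite to that of Nr1d1, Dbp and the Per transcripts, so a single harvest sees each gene at one point of its daily curve.

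Promoter sequence from RefSeq (GRCm38.p6) was matched for 9 of the 10 genes, in 13 windows of 300 bases, and the table used holds no window for Per2. The 250 bases before the start are shown for Arntl, the gene that passed the test, for Cry1 and Per1, which did so in some settings, and for Per3, whose window holds paired D-boxes. Capitals mark an E-box (CACGTG), a D-box (TTANNTAA), the core of a ROR and REV-ERB site (AGGTCA) or, for Cry1 and Per1, a cyclic AMP response half-site (TGACG), each searched on both strands. The Arntl stretch is chr7:113207215-113207464 (plus strand), for the first of 2 starts, Cry1 chr10:85185055-85185304 (minus), Per1 chr11:69098699-69098948 (plus) for the first of 2 starts and chr11:69099902-69100151 (plus) for the other, and Per3 chr4:151044666-151044915 (minus).
Arntl: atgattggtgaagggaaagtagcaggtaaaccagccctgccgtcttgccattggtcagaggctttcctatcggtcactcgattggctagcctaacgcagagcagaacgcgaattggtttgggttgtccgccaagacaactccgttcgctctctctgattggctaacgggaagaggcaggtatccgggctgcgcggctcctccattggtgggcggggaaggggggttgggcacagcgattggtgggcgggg
Cry1: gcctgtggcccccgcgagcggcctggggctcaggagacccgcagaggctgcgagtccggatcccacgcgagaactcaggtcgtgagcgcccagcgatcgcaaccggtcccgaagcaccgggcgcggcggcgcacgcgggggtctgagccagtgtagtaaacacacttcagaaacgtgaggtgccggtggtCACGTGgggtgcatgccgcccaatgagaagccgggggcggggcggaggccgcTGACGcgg
Per1 first start: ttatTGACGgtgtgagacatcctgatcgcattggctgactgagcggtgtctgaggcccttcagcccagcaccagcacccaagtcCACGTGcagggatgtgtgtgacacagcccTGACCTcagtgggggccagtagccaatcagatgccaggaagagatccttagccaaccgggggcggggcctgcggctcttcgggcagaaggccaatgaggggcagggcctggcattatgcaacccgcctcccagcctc
Per1 other start: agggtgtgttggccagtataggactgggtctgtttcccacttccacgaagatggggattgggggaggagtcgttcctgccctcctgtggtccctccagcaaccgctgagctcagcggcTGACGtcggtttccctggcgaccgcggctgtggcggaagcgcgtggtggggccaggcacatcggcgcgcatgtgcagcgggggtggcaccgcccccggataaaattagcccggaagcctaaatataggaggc
Per3: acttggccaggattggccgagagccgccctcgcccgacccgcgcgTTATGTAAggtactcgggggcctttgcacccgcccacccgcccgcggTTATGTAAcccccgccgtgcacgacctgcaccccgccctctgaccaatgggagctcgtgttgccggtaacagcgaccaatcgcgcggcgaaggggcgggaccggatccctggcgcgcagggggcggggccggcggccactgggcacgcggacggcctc

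The Cry1 stretch held an E-box 60 bases before the start, and the first Per1 stretch held one 166 bases before the start. E-boxes were found in these 2 of the 13 windows and in 7.15% of all 32851 promoter windows. Per3 held D-boxes of the form TTANNTAA at 205 and 158 bases before its start, the only window of the 13 with that form, which 6% of all windows hold. Other spellings of the D-box were not searched, so an unmarked stretch may still hold one. The AGGTCA core was in 4 of the 13 windows, those of Per1, Nr1d2, a Clock start and an Arntl start, against 16.3% of all windows, and for Arntl it was in the window of the other start, which is not printed, and began 32 bases after that start. The TGACG half-site was in 3 of the 13 windows against 20.8% of all, and 0 of the 13 held the full TGACGTCA site, which 1.79% of all windows hold. The full site contains the half-site. A match describes letters only, and the Arntl windows overlap, as do 2 of the 3 Clock windows.

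The libraries held 47659122 to 56147667 counts, with 1 library per mouse and all from separate mice per the labels. Stk11 had 22.1, 14.4 and 11.4 CPM (counts scaled to a common library size, with TMM factors) in KO 1, 2 and 3, against 66.1, 64.2 and 69.7 in WT 1, 2 and 3. Replicate 1 of each group had Xist counts (42472 in KO 1 and 29243 in WT 1) and at most 6 counts over 4 Y-linked genes, while the other 4 libraries, called the Y-linked libraries from here on, had 6146 to 8199 Y-linked counts. Each of the 10 clock genes is therefore also given within the Y-linked libraries, 2 against 2, and for the remaining pair, KO 1 against WT 1, which has no replicate. Hepatocyte markers were abundant throughout. Their summed level was 79451 to 117244 CPM in WT and 25405 to 70160 CPM in KO, most of it from Alb, the gene of serum albumin, at 57064 to 95626 CPM in WT and 10394 to 50550 CPM in KO. Of these 6 markers 1 was called as higher and 0 as lower in edgeR (2.15% and 1.22% of 14539 tested genes), and the called gene, Tat, had a log2 fold change of 1.86 (adjusted p = 0.0344). In limma voom 2 of the 6 passed (2.97%) and in DESeq2 5 (15.8%), and 4 had an unadjusted edgeR p-value under 0.05 (26.3%). The groups did not overlap for 2 that were higher and 3 that were lower in KO (16.9% and 15.5% of all tested). Of 6 endothelial markers 0 passed in edgeR with group as the only term and in limma voom (3.37% and 2.97% of all tested), 3 in DESeq2 (15.8% of genes with an adjusted p-value there) and 5 had an unadjusted edgeR p-value under 0.05 (26.3%). Their sum was 67.2 to 112 CPM in KO and 135 to 185 CPM in WT. Of the Kupffer, stellate, bile duct, lymphocyte and erythroid markers 0 passed over 6 libraries in edgeR with group as the only term, DESeq2 or limma voom, and 1, a lymphocyte marker (Cd3e), had an unadjusted p-value under 0.05. With the Xist or Y-linked state added as a term over 6 libraries, edgeR called 10.3% of all tested genes. That fit called 4 of 6 endothelial, 3 of 6 hepatocyte and 1 of 5 stellate markers, and 0 of the Kupffer, bile duct, lymphocyte and erythroid markers. Within the Y-linked libraries, where 16.1% of 14546 tested genes were called as lower, 4 of 4 erythroid, 2 of 5 Kupffer, 2 of 5 stellate, 5 of 6 endothelial, 3 of 6 hepatocyte, 1 of 5 bile duct and 0 of 3 lymphocyte markers were called as lower. Among these lists 1 gene, the hepatocyte marker Tat, was called there as higher (17.2% of all tested). The summed level was 30.9 to 193 CPM in KO and 177 to 299 CPM in WT for the erythroid markers, 81.4 to 184 and 113 to 154 CPM for the Kupffer markers, 102 to 211 and 165 to 349 CPM for the stellate markers, 24.8 to 74.2 and 39.5 to 72.7 CPM for the bile duct markers, and 0.34 to 0.99 and 0.87 to 1.30 CPM for the lymphocyte markers. None of these markers was at 0 in a library. The part of these differences in the clock results was not tested, and in bulk liver fewer cells of a type cannot be told apart from less RNA per cell.

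Of the 10 clock genes only Arntl changed between KO and WT at an edgeR adjusted p-value under 0.05 (quasi-likelihood test), where 3.37% of 14539 tested genes did. It rose from a mean of 18.5 to 40.7 CPM, so that 1 of the 10 was called as higher (2.15% of all tested) and 0 as lower (1.22%). An unadjusted p-value under 0.05 was found for 4 of the 10, against 26.3% of all tested genes. Cry1 and Per1 were also higher in every KO library than in any WT library, and Nr1d1 was lower in every one, but none of these 3 passed the test over all 6 libraries. The other 6 genes overlapped between the groups. Separation of the groups was thus seen for 4 of the 10, against 32.4% of all tested genes, with 3 higher (16.9% of all) and 1 lower (15.5%). The median log2 fold change of the 10 was -0.04, beside 0.01 for all tested genes, with 5 of the 10 above 0.

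**Figure D1:**
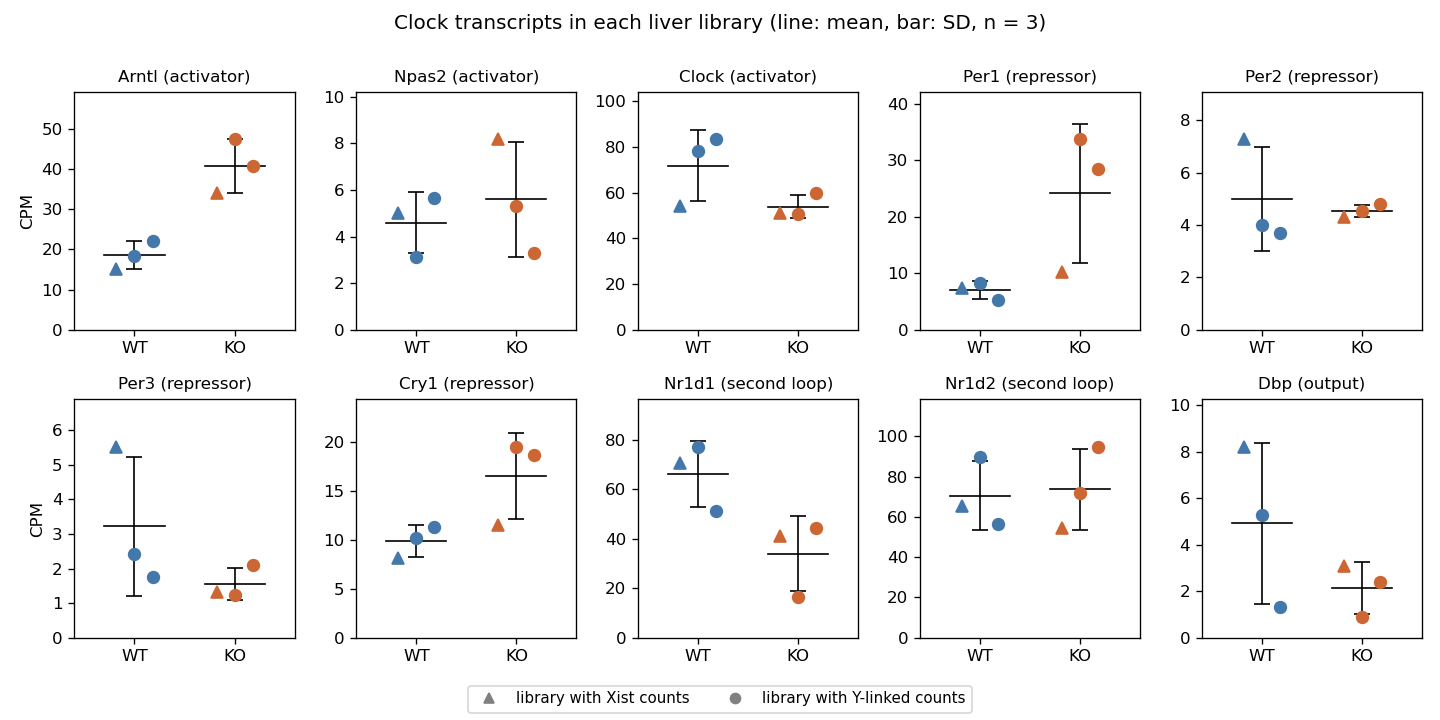
Normalised level (CPM, y axis from 0) of each clock gene in the 3 WT and 3 KO libraries. Each symbol is 1 mouse, triangles mark the libraries with Xist counts and circles those with Y-linked counts, and lines and bars give the mean and SD. Arntl, Per1 and Cry1 lie higher in all KO libraries and Nr1d1 lower, whereas Dbp spans 1.30 to 8.20 CPM within WT alone.

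Among the activators, Arntl (chromosome 7, 113207465 to 113314126, GRCm38) encodes BMAL1, the partner that the loop cannot do without. It stood at 33.9, 47.4 and 40.8 CPM in KO 1, 2 and 3 and at 15.1, 18.4 and 22.2 CPM in WT 1, 2 and 3. The lowest KO library was above the highest WT library. The means were 40.7 ± 6.75 and 18.5 ± 3.55 CPM (SD, n = 3 each), and the log2 fold change was 1.13 ± 0.190 (SE), with a 95% interval from 0.68 to 1.58 and an edgeR adjusted p-value of 0.0334. It was 1.12 within the Y-linked libraries (adjusted p = 0.00439) and 1.17 for KO 1 over WT 1. The call was lost when any library but KO 1 was left out, with log2 fold changes of 1.00 to 1.28 and adjusted p-values of 0.0702 to 0.183.

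Clock (chromosome 5, 76209868 to 76304792), the DNA-binding partner of BMAL1, went the other way. Its levels were 50.9, 50.8 and 59.6 CPM in KO 1, 2 and 3 and 53.9, 78.2 and 83.3 CPM in WT 1, 2 and 3. WT 1 fell within the KO range and the other WT libraries lay above it. Over all 6 libraries it had a log2 fold change of -0.42 ± 0.187 and was not called (edgeR adjusted p = 0.211), and the value was -0.55 within the Y-linked libraries (adjusted p = 0.0226) and -0.08 in the Xist pair. Npas2 (chromosome 1, 39193731 to 39363236), which can stand in for CLOCK, had 8.18, 5.33 and 3.29 CPM in KO and 5.03, 3.14 and 5.64 CPM in WT. The groups overlapped, and the 95% interval of its log2 fold change ran from -0.60 to 1.16. The value was -0.03 within the Y-linked libraries and 0.70 in the Xist pair. The 3 activator genes thus had a called rise, an uncalled lower mean and an uncalled difference of 0.28 on the log2 scale.

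Of the repressors, Cry1 (chromosome 10, 85131700 to 85185064) encodes the strongest inhibitor of the BMAL1 pair. It had 11.5, 19.5 and 18.7 CPM in KO 1, 2 and 3 and 8.10, 10.2 and 11.3 CPM in WT 1, 2 and 3. KO 1 was only just above the highest WT library. Over all libraries the log2 fold change was 0.74 ± 0.236, with a 95% interval from 0.18 to 1.30 and an edgeR adjusted p-value of 0.113. Within the Y-linked libraries it was 0.82 (adjusted p = 0.00566) and in the Xist pair 0.50, and with the Xist or Y-linked state as a term over all 6 libraries it was 0.72 (adjusted p = 0.0311).

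Per1 (chromosome 11, 69095217 to 69109960), a repressor gene that also responds quickly to cyclic AMP and glucocorticoids, had the largest log2 fold change of the 10. Its levels were 10.3, 33.7 and 28.4 CPM in KO 1, 2 and 3 and 7.33, 8.33 and 5.20 CPM in WT 1, 2 and 3. KO 2 and KO 3 were far above WT, whereas KO 1 was close to it. This gave a log2 fold change of 1.79 ± 0.433, with a 95% interval from 0.77 to 2.82, and it did not pass (edgeR adjusted p = 0.0687). It was 2.19 within the Y-linked libraries (adjusted p = 0.00295) and 0.49 in the Xist pair. The test of the difference between these subsets, the interaction of group and state, gave -1.71 on the log2 scale and did not pass (adjusted p = 0.105). All replicate spread in the interaction test comes from the Y-linked libraries, and KO 1 and WT 1 are assumed to vary like them.

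Per2 (chromosome 1, 91415982 to 91459324), the Per gene most needed for rhythm, had 4.29, 4.52 and 4.78 CPM in KO and 7.27, 4.01 and 3.70 CPM in WT 1, 2 and 3. The KO libraries were tightly grouped and lay inside the WT range. The 95% interval of its log2 fold change was -0.81 to 0.53, and the value was 0.26 within the Y-linked libraries and -0.76 in the Xist pair. Per3 (chromosome 4, 151003652 to 151044665), whose product is a weaker repressor, had 1.32, 1.24 and 2.10 CPM in KO and 5.52, 2.41 and 1.75 CPM in WT. WT 1 stood highest and WT 3 lay below KO 3. Its log2 fold change was -1.06 ± 0.473 (edgeR adjusted p = 0.212), with -0.33 within the Y-linked libraries and -2.03 in the Xist pair. The interaction did not pass for Per2 (adjusted p = 0.138) or Per3 (0.184).

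The 3 Per genes did not share a sign. Per1 was above 0 and Per3 below 0 in all 3 readings, and Per2 changed sign between them. Over all 10 genes the interaction was called for 0 in edgeR, against 2.90% of tested genes, and 3 had an unadjusted p-value under 0.05, against 20.9%. With no filter on low counts it passed for Per1 (adjusted p = 0.000325) and Per3 (0.0300), where 6.78% of 23717 genes passed.

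In the second loop, Nr1d1 (chromosome 11, 98767932 to 98775333) encodes REV-ERB alpha, the main repressor of Arntl. It had 41.1, 16.4 and 44.3 CPM in KO 1, 2 and 3 and 70.4, 77.0 and 51.1 CPM in WT 1, 2 and 3. All KO libraries were below all WT libraries, with KO 2 well below the rest. The log2 fold change was -0.96 ± 0.372, with a 95% interval from -1.84 to -0.08, and it did not pass (edgeR adjusted p = 0.163). It was -1.08 within the Y-linked libraries (adjusted p = 0.130) and -0.78 in the Xist pair. Its exons share 263 bases, or 8.55% of their length, with Thra on the opposite strand, and the use of strand in counting is not given in the sources used here. Thra stood at 11.7 to 13.2 CPM in KO and 13.0 to 15.2 CPM in WT.

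Nr1d2 (chromosome 14, 18204054 to 18239127) encodes REV-ERB beta, which overlaps with its relative in function. It had 54.4, 72.0 and 94.7 CPM in KO and 65.5, 89.5 and 56.6 CPM in WT, so the groups covered the same range. The log2 fold change was 0.06 ± 0.252, with a 95% interval from -0.53 to 0.66, and the value was 0.19 within the Y-linked libraries and -0.27 in the Xist pair. The groups were thus separated for Nr1d1 and overlapped for Nr1d2, but neither gene was called and their intervals overlapped. A difference between the REV-ERB genes was not tested.

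Dbp (chromosome 7, 45705088 to 45710203), the output gene with one of the steepest daily rhythms in liver, had 3.09, 0.90 and 2.40 CPM in KO 1, 2 and 3 and 8.20, 5.28 and 1.30 CPM in WT 1, 2 and 3. WT 3 was below 2 of the 3 KO libraries. These levels rest on 50 to 416 counts per library. KO and WT differed by a log2 fold change of -1.21 ± 0.694, with a 95% interval from -2.86 to 0.43 (edgeR adjusted p = 0.310). It was -1.02 within the Y-linked libraries (adjusted p = 0.335) and -1.40 in the Xist pair. Of the exon length of Dbp, 18.01% is shared with Sphk2 on the opposite strand, which stood at 38.5 to 55.2 CPM across the 6 libraries, far above Dbp.

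**Figure D2:**
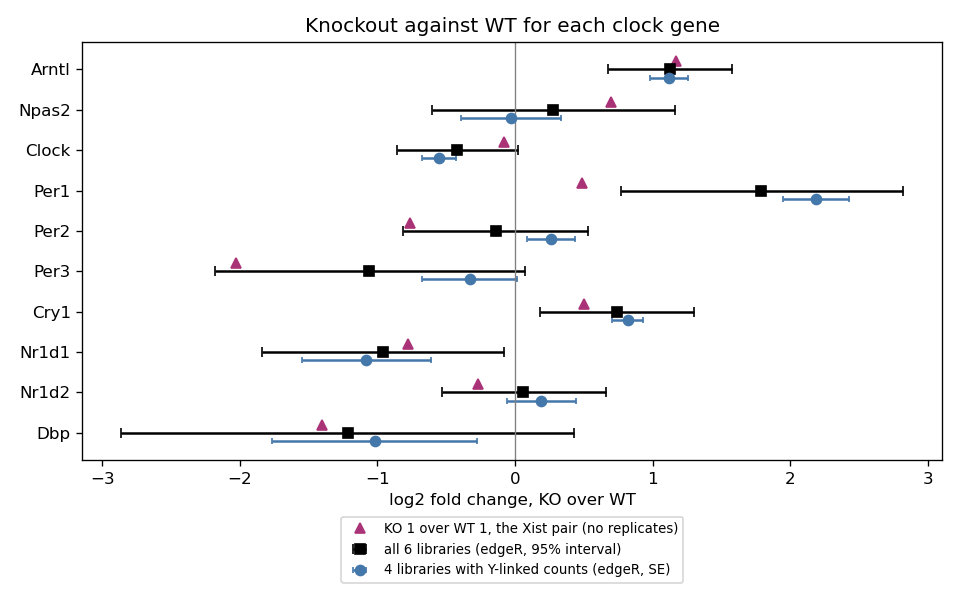
Log2 fold change of KO over WT (x axis) for each of the 10 genes. Squares with 95% intervals use all 6 libraries, circles with SE bars the 4 Y-linked libraries, and triangles the single ratio of KO 1 to WT 1. The 3 readings of Arntl lie at 1.12 to 1.17, whereas those of Per1 run from 0.49 to 2.19.

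Within the Y-linked libraries 4 of the 10 genes passed, against 33.3% of 14546 tested genes. They were Arntl, Per1 and Cry1 as higher (17.2% of all tested) and Clock as lower (16.1%). With the state as a term over all libraries 2 passed, Arntl and Cry1, against 10.3% of tested genes. The share of clock genes called in the Y-linked libraries was thus near the background of all genes.

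Levels between genes were compared as CPM per kilobase of annotated exon. In WT, Nr1d1 was the most abundant at 21.5 ± 4.38, followed by Nr1d2 at 13.0 ± 3.15, Clock at 5.23 ± 1.14, Cry1 at 2.96 ± 0.486 and Arntl at 2.46 ± 0.472 (SD, n = 3). The WT ranges of Nr1d1 (16.6 to 25.0) and Nr1d2 (10.5 to 16.5) did not overlap, and Clock stayed above Cry1, whereas those of Cry1 and Arntl did overlap. Dbp, Per1, Npas2 and Per2 lay between 1.65 and 0.853 with overlapping ranges, and Per3 was lowest at 0.336 ± 0.209. The WT range of Dbp (0.436 to 2.74) also reached those of Cry1, Arntl and Per3. By KO means the order differed at the top and middle, with Nr1d2 at 13.6 ± 3.73, Nr1d1 at 11.0 ± 4.97 and then Arntl at 5.41 ± 0.898 and Cry1 at 4.96 ± 1.32. Per1 at 4.28 ± 2.18 and Clock at 3.92 ± 0.368 followed, and Per3 was again lowest. The KO ranges of Nr1d1 (5.32 to 14.4) and Nr1d2 (10.1 to 17.5) overlapped, as did those of Arntl, Cry1 and Per1 with each other. The KO range of Clock (3.70 to 4.34) lay inside that of Per1 (1.83 to 5.98) and overlapped that of Cry1 (3.44 to 5.83), so Per1, Clock and Cry1 had no order in KO beyond their spread.

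The clock genes varied between mice of 1 group. All 10 had a wider spread in WT, as the highest over the lowest library, than the median of 1.26 for genes with counts in every library, and 7 did so in KO, where that median was 1.50. Dbp was the widest in both groups, at 6.29-fold in WT and 3.43-fold in KO. Per3 spread 3.15-fold in WT, and Per1 and Nr1d1 spread 3.27-fold and 2.71-fold in KO. In contrast, Per2 spread only 1.11-fold and Clock 1.17-fold in KO.

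In WT, 1 library held an extreme for every clock gene. WT 3 had the highest level of the group for 4 genes, the activators Arntl, Npas2 and Clock together with Cry1, and the lowest for the other 6, which are Per1, Per2, Per3, Nr1d1, Nr1d2 and Dbp. In KO no library had such a place in all 10 genes. KO 2 was highest for Arntl, Per1 and Cry1 and lowest for Clock, Per3, Nr1d1 and Dbp. This ordering was noticed after the values were seen and has no test.

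Ratios of transcripts with different phase were then read within each library, where library size cancels. The log2 ratio of Arntl to Nr1d1 counts was -0.28, 1.53 and -0.12 in KO 1, 2 and 3 and -2.22, -2.07 and -1.20 in WT 1, 2 and 3. All KO libraries were above all WT libraries, with means of 0.38 ± 1.00 and -1.83 ± 0.549 (SD, n = 3). For Cry1 to Per3 the log2 ratio was 3.12, 3.97 and 3.15 in KO and 0.55, 2.09 and 2.69 in WT, again without overlap. For Arntl to Dbp it was 3.46, 5.72 and 4.09 in KO and 0.88, 1.80 and 4.09 in WT, so WT 3 sat within the KO range. Npas2 to Per2 overlapped, with means of 0.21 ± 0.735 in KO and -0.09 ± 0.614 in WT. These ratios are a description with no test, and they combine the gene levels already given.

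**Figure D3:**
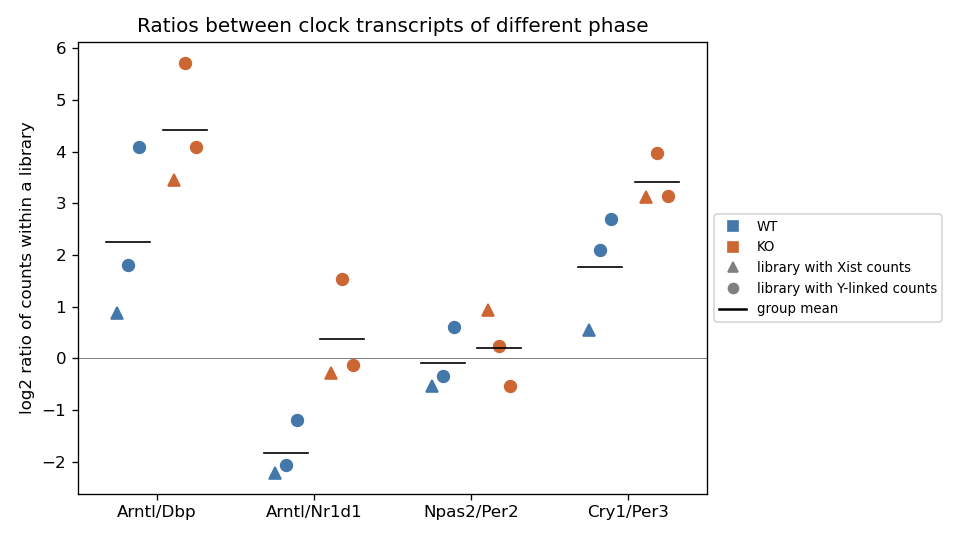
Log2 ratio of counts of 2 clock genes within each library (y axis), for 4 ratios, with WT in blue and KO in orange and group means as lines. The Arntl to Nr1d1 and Cry1 to Per3 ratios do not overlap between groups, and WT 3 reaches 4.09 for Arntl to Dbp, the value of KO 3.

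A further 19 genes of the clock were read from the same fit, and 17 were tested over 6 libraries, all but Ciart and Rorb, which had too few counts. Of these 1 was called as higher and 0 as lower, against 2.15% and 1.22% of all tested genes. An unadjusted p-value under 0.05 was found for 6 of the 17, near the 26.3% of all tested genes, and the median log2 fold change was 0.14. Within the Y-linked libraries 18 of the 19 were tested, all but Rorb. There 6 were called as higher and 3 as lower, against 17.2% and 16.1% of all tested genes. Nfil3, the D-box repressor that competes with DBP, rose from 26.2, 30.0 and 40.8 CPM in WT 1, 2 and 3 to 64.9, 66.2 and 60.7 CPM in KO. Its log2 fold change was 0.98 ± 0.179 (edgeR adjusted p = 0.0417), 0.84 within the Y-linked libraries and 1.31 in the Xist pair. Like that of Arntl, this call was lost when any library but KO 1 was left out (log2 fold changes of 0.85 to 1.18, adjusted p-values of 0.0830 to 0.211).

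The 2 D-box activators related to Dbp had lower means in KO and did not pass in edgeR with group as the only term. DESeq2 called 1 of them, where it called 15.8% of all genes with an adjusted p-value there. Hlf had 25.4, 17.6 and 21.7 CPM in KO and 36.8, 34.5 and 33.5 CPM in WT, with no overlap and a log2 fold change of -0.69 ± 0.154 (edgeR adjusted p = 0.0594). Within the Y-linked libraries it was called at -0.80 (adjusted p = 0.00970), and the Xist pair had -0.53. With the state as a term over 6 libraries Hlf was called at -0.70 (edgeR adjusted p = 0.0323), where 10.3% of all tested genes were called. Tef had 37.7, 20.9 and 42.3 CPM in KO and 64.6, 63.6 and 42.1 CPM in WT, and its order among the mice matched that of Nr1d1 in KO, with KO 2 lowest. Its log2 fold change was -0.76 ± 0.293 (adjusted p = 0.164), with -0.75 within the Y-linked libraries and -0.77 in the Xist pair.

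Rora, which encodes a ROR receptor that activates Arntl and is named here after its values were seen, was at 78.1, 167 and 154 CPM in KO 1, 2 and 3 and at 74.2, 90.8 and 86.1 CPM in WT 1, 2 and 3. KO 2 and KO 3 lay above WT, whereas KO 1 was within the WT range. Its log2 fold change within the Y-linked libraries was 0.85 (edgeR adjusted p = 0.00598). It did not pass over 6 libraries (0.67 ± 0.284, adjusted p = 0.195), nor did its interaction (adjusted p = 0.124).

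Further repressors were close to WT where well measured. Cry2, the relative of Cry1, had a log2 fold change of 0.10 ± 0.146 and Bhlhe40, which competes for E-boxes, 0.16 ± 0.166. Bhlhe41 was at 0.08 to 0.19 CPM in KO and 0.26 to 0.60 CPM in WT, with a log2 fold change of -1.45 ± 0.500 (edgeR adjusted p = 0.133). Within the Y-linked libraries it was called at -1.89 (adjusted p = 0.0396). Ciart, another repressor of the BMAL1 pair, was not tested over 6 libraries and is named after its values were seen. It stood at 0.02, 2.34 and 1.38 CPM in KO and 0.08, 0.10 and 0.19 CPM in WT. KO 1 was under the level of 3 counts (0.0515 CPM), and KO 2 and KO 3 were above every WT library. Within the Y-linked libraries Ciart was called as higher (log2 fold change 3.68, edgeR adjusted p = 0.00513). The filter kept it there by its KO counts, so that call is not independent of them. A list of 9 genes held those for clock protein kinases and turnover together with Timeless. Of these 9 genes 0 passed over 6 libraries in edgeR, DESeq2 or limma voom. An unadjusted edgeR p-value under 0.05 was found for 2 (26.3% of all tested genes). The 3 with the smallest p-values were the kinase gene Gsk3b (log2 fold change 0.57 ± 0.188), the ubiquitin ligase gene Btrc (-0.32 ± 0.123) and Timeless (0.90 ± 0.428), none of them called over 6 libraries. Within the Y-linked libraries 3 of the 9 were called as higher and 1 as lower, against 17.2% and 16.1% of all tested genes. Gsk3b, Btrc and Timeless were among them, at 0.70, -0.41 and 1.10 (edgeR adjusted p = 0.00605, 0.0457 and 0.0422).

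**Figure D4:**
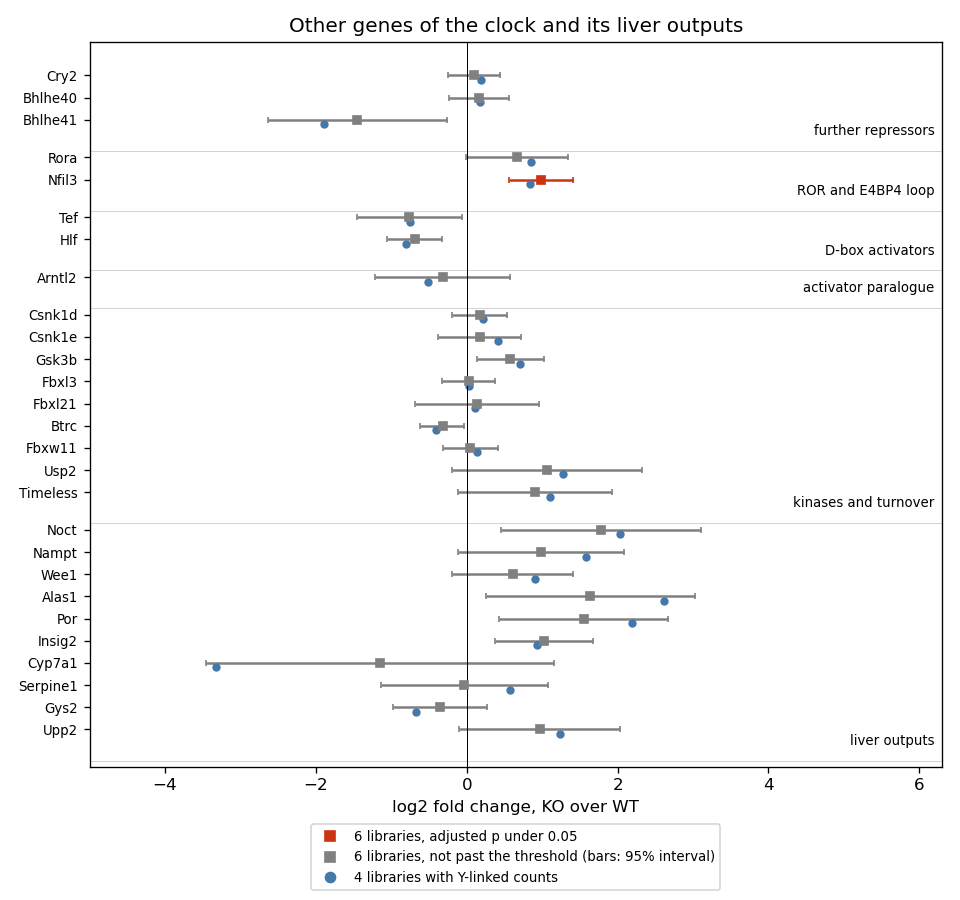
Log2 fold change of KO over WT (x axis) for the tested genes of the other clock lists and of the liver outputs. Squares with 95% intervals use all 6 libraries and are red past the threshold, which Nfil3 alone reached, and blue circles use the 4 Y-linked libraries. Nfil3 lies above 0, and Tef and Hlf lie below it.

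Of 10 liver genes known as outputs of the clock, 0 passed over 6 libraries in limma voom or in edgeR with group as the only term, 4 passed in DESeq2 (15.8% of all genes) and 4 had an unadjusted p-value under 0.05 in edgeR (26.3%). Their median log2 fold change was 0.97, with 7 of the 10 above 0. Insig2, a REV-ERB target that restrains sterol synthesis, had 383, 537 and 505 CPM in KO and 153, 276 and 268 CPM in WT, without overlap, and a log2 fold change of 1.03 ± 0.273 (edgeR adjusted p = 0.0791). Noct, a rhythmic phosphatase gene, had 12.7, 65.4 and 53.0 CPM in KO and 9.17, 15.5 and 13.4 CPM in WT. Por, the electron donor of the cytochromes P450, had 251, 878 and 736 CPM in KO and 284, 191 and 161 CPM in WT. For Noct and Por, KO 2 and KO 3 were high and KO 1 was within the WT range. Within the Y-linked libraries 6 of the 10 passed as higher and 1 as lower, against 17.2% and 16.1% of all tested genes. With the state as a term over 6 libraries 2 of the 10 passed in edgeR, against 10.3% of all tested genes. These were Insig2 and Noct (adjusted p = 0.0247 and 0.0470).

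Beside Per1, genes that answer the same outside signals were counted. Their lists were chosen with earlier results of these data known, so the counts are a description and no test. Of 6 early genes of cyclic AMP and CREB signalling 4 rose in edgeR and 0 fell, against 2.15% and 1.22% of all tested genes. Among them was Crem, at 45.8, 52.0 and 61.0 CPM in KO and 22.7, 28.1 and 21.6 CPM in WT (log2 fold change 1.13 ± 0.163, adjusted p = 0.0255). The others were Nr4a1, Nr4a2 and Sik1, with log2 fold changes of 2.66, 4.07 and 2.52. Of 6 glucocorticoid targets 2 rose, Sgk1 and Tat, by 3.12 and 1.86, and of 6 heat shock genes 1 fell, Hspa1b, by 1.58 on the log2 scale, against the same shares of all tested genes. Tat is also among the hepatocyte markers counted above. KO 1 was lower than KO 2 and KO 3 for Per1, for all 6 early genes and for the glucocorticoid targets other than Tsc22d3, where it was the highest. The part of these signals in the level of Per1 was not tested.

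The genes most like a clock gene in pattern were read from the correlation of log2 CPM over the 6 libraries, as a description. Among 9140 genes with a mean of at least 5 CPM, Upf3a (r = 0.998), Cdk10 (0.992), Mdm4 (0.990), St5 (0.989) and Rpl23a (0.989) were closest to Arntl, and 195 genes exceeded 0.95. Hsdl2 (0.987), Mpv17 (0.959), Maoa (0.956), Ints10 (0.951) and Gpn3 (0.942) were closest to Dbp among 9141 such genes, of which 4 exceeded 0.95. With 6 libraries that share the group difference, such values single out no gene.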

How the data were processed

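The 10 clock genes and the other gene lists were chosen with earlier results of these data known. The authors deposited 1 table of expected counts per gene for poly(A) RNA from liver, with no values of another kind. The submitters' processing notes name STAR 2.7.0f, RSEM 1.3.1, cutadapt 1.18 and the build mm9, whereas all 55450 gene identifiers, with version, were found in GENCODE M21 for GRCm38, from which positions and exon lengths were taken.

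The expected counts were rounded, and the 14539 genes that filterByExpr kept were scaled by TMM (trimmed mean of M-values) and tested with edgeR 4.0.16 in R 4.3.3 (quasi-likelihood, group only), with Benjamini-Hochberg adjustment over all genes tested and a threshold of 0.05. The SE is the log2 fold change divided by the square root of F. Log2 CPM used a prior count of 2. Alternatives were other scalings, no filter, DESeq2 1.42.0, limma voom 3.58.1, a replicate block, the Xist or Y-linked state, and leaving out libraries. Tests were tried on simulated counts. Named genes were the 10, Stk11, the called genes of each list or else its 3 smallest p-values, and the 5 genes most like Arntl and Dbp. Rora, Ciart, Rorb, Tsc22d3, Fkbp5, Zbtb16 and single marker genes are named outside this rule, after their values were seen. Of the table's columns, 0 lacked a sample. A level of 3 counts is 0.0515 to 0.0641 CPM. Of the gene lists, 2 genes are not reported here.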

Additional observations from a re-analysis of the deposited data

Results flagged for a closer look

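The libraries with Xist counts were KO 1 and WT 1, so the interaction of group and state sets 1 library against 1 beside 2 against 2. All replicate spread in this test comes from the libraries with Y-linked counts, and KO 1 and WT 1, which have no replicate, are assumed to vary like them. Among the clock and output genes given here the interaction was called for 4 of 10 liver outputs, where 2.90% of all tested genes were. It was called for 0 of the 10 clock genes and 0 of the 17 further clock genes tested. The 4 outputs called in edgeR were Noct (-1.57 on the log2 scale, adjusted p = 0.0442), Nampt (-2.38, 0.0109), Alas1 (-3.20, 0.00730) and Por (-2.38, 0.0258), where a negative value means a lower log2 ratio in the Xist pair. Their log2 fold changes within the libraries with Y-linked counts were 2.03, 1.58, 2.62 and 2.19, and their log2 ratios of KO 1 to WT 1 were 0.46, -0.80, -0.57 and -0.18. Alas1, the first enzyme of heme synthesis, stood at 153, 583 and 546 CPM in KO 1, 2 and 3 and at 227 CPM in WT 1, with a WT mean of 137 ± 78.4 CPM (SD, n = 3). Nampt, an enzyme of NAD salvage, stood at 35.3, 135 and 119 CPM in KO and 61.4, 45.1 and 39.8 CPM in WT. Markers of other cell types were called in the same test, for 3 of 4 erythroid markers (Hbb-bt, Hba-a1 and Hba-a2) and 2 of 5 Kupffer markers (Adgre1 and Vsig4), all with positive values. Hba-a1 and Hba-a2 are near-identical copies, as are Hbb-bt and the uncalled Hbb-bs, and the counting may split reads between copies. Also called were 2 of 6 glucocorticoid targets, Fkbp5 (-2.96, adjusted p = 0.0200) and Zbtb16 (-2.99, 0.00745). These genes are named after their values were seen, and their part in the values of the liver outputs was not tested. KO 1 also had the highest Stk11 level of the KO libraries, at 22.1 CPM against 14.4 and 11.4 CPM in KO 2 and KO 3. The part of that difference in the interaction was not tested.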

How the results depend on the processing

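With 490 genes and 1 clock gene called over 6 libraries in edgeR, other settings moved these counts. No filter gave 771 genes and 2 clock genes (Arntl and Per1), DESeq2 2290 and 3 (Arntl, Per1 and Cry1), the state as a term 1504 and 2 (Arntl and Cry1), and the libraries with Y-linked counts 4847 and 4 (Arntl, Clock, Per1 and Cry1). DESeq2 size factors, library size alone and limma voom kept Arntl as the 1 clock gene called, and library size alone put 74.4% of all calls as higher in place of 63.9%. Leaving out 1 library gave 6 to 4473 genes and 0 to 3 clock genes, the 3 without KO 1 (Arntl, Per1 and Cry1) and 0 without any other library. The replicate numbers were not taken as pairs, since the labels give separate mice. Correlations of deviations were 0.18, 0.04 and 0.07 for numbers 1 to 3 and -0.17 to 0.20 between unlike numbers. With 3 libraries per group these values cannot exclude pairing. The replicate block gave 105 genes and 0 clock genes, with Arntl at an edgeR adjusted p-value of 0.0512. The further clock gene Nfil3, at a log2 fold change of 1.01, had 0.0821, and neither was called. The interaction count of 421 became 1607 without the filter. Signs turned for Npas2 (0.28) to -0.03 and Per2 (-0.14) to 0.26 within the libraries with Y-linked counts. Leaving out 1 library, Npas2 ran from -0.10 (without KO 1) to 0.55, Per2 from -0.32 to 0.23 (without WT 1), and Nr1d2 (0.06) from -0.16 (without KO 3) to 0.27, with -0.07 without WT 3. The cause of these changes was not tested. Arntl, Cry1 and Per1 stayed above 0 and Clock, Per3, Nr1d1 and Dbp below 0 in all 14 alternatives, with ranges of 1.00 to 1.28 for Arntl and -1.66 to -0.63 for Dbp. Low counts limit Dbp and Per3, at 50 to 416 and 69 to 280 counts.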
